A study of Mus musculus with 19 samples.

Results

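The genes described here are 30 listed as typical of 2 cell types of the kidney, 12 of podocytes and 18 of endothelial cells, and each was read at its brightest probe set that names a single gene. Of these, 29 were measured, among 17097 genes with such a probe set; the podocyte gene Magi2 was not analysed here, which leaves 11 podocyte and 18 endothelial genes. To ask which transcripts preoperative fasting changes before any renal ischemia-reperfusion injury (IRI), the kidneys of 19 uninjured male mice were profiled individually on the Affymetrix HT MG-430 PM platform. The young-lean mice, of strain C57BL/6J in the protocol text and C57BL/6 in the strain field, were 10 to 14 weeks old and weighed 22 to 25 g, with 5 fed ad libitum and 4 fasted for 3 days on water only. Aged-overweight mice, all FVB-C57BL/6J F1 hybrids, had an average age of 73 weeks and a weight of about 47 g, and of these 5 ate ad libitum and 5 were fasted for 3 days. Age, strain and body weight differed together, so a difference between the young and the aged response cannot be told apart from one between strains.

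Podocytes are the epithelial cells that wrap the glomerular capillaries, and the slit diaphragm between their foot processes is the last barrier of the kidney filter. Podocytes secrete vascular endothelial growth factor A (Vegfa), which acts on receptors of the fenestrated glomerular endothelium facing them. The other vessels of the kidney, including peritubular capillaries, carry endothelial cells that share most of the junction, receptor and nitric oxide genes listed here.

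The deposited values are log2 levels normalized by the authors. The median of all probe sets lay between 3.44 and 3.49 on the aged arrays and between 4.15 and 4.21 on the young arrays, so levels were compared between diets within an age and not between ages. Among kidney markers, uromodulin (Umod), made in the thick ascending limb, was at log2 levels of 12.4 to 12.7 on aged and 13.0 to 13.2 on young arrays, beside 2.52 to 3.19 over all arrays for the lung gene Sftpc. Each array holds RNA of frozen kidney tissue with all its cell types, so fewer cells of a type and less RNA per cell cannot be told apart in these values. The array of aged ad libitum fed mouse 40 stood apart. It was the lowest of the 10 aged arrays for 7 of 11 podocyte genes and 12 of 18 endothelial genes, while it was lowest for 12.7% of all genes and highest for 20.9% of them. On this array the 3' probe set of Gapdh exceeded the 5' probe set by 0.88 on the log2 scale, where the other 9 aged arrays gave 0.21 to 0.54. Aged values were therefore also computed without mouse 40. The 9 young arrays gave 0.60 to 1.23 for the same excess, which thus differed between the ages as well. Its part in differences between the ages was not tested. Values of single mice are given in the order 346, 347, 348, 349 and 350 (young ad libitum fed), 339, 340, 343 and 344 (young fasted), 34, 36, 37, 40 and 43 (aged ad libitum fed) and 33, 38, 39, 41 and 42 (aged fasted).

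Few of these genes passed the test, and those that did passed in young kidneys. The words rose and fell are used for genes with limma adjusted p values of 0.05 or less, whatever their fold change. In aged kidneys 0 of 11 podocyte genes and 0 of 18 endothelial genes passed, where 4.32% of all genes rose and 4.84% fell. An unadjusted p under 0.05 by limma was reached by 1 podocyte and 3 endothelial genes, and by 4059 of all 17097 genes. The ordinary linear model without moderation also passed 0 of the 29 genes. In young kidneys 1 of 11 podocyte genes rose (Wt1) and 1 fell (Tcf21), and 0 of 18 endothelial genes rose and 3 fell (Kdr, Ehd3 and Sox17), against 10.7% of all genes that rose and 12.5% that fell. These counts lie near or under the shares of all genes. Of these 5 genes, Wt1 and Tcf21 also had a fold change of at least 1.5, a call reached by 6.49% of all genes. At the brightest probe sets, Tcf21 was the single gene of the 29 whose fasting effect differed between the ages, where 2.44% of all genes differed. A dimmer probe set of Clic5 also passed for this difference (0.54, adjusted p = 0.0419 by limma), with 0.32 in aged and -0.22 in young kidneys. The brightest probe set of Clic5 (0.29) and its other dimmer ones (0.11 and 0.13) did not.

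**Figure D1:**
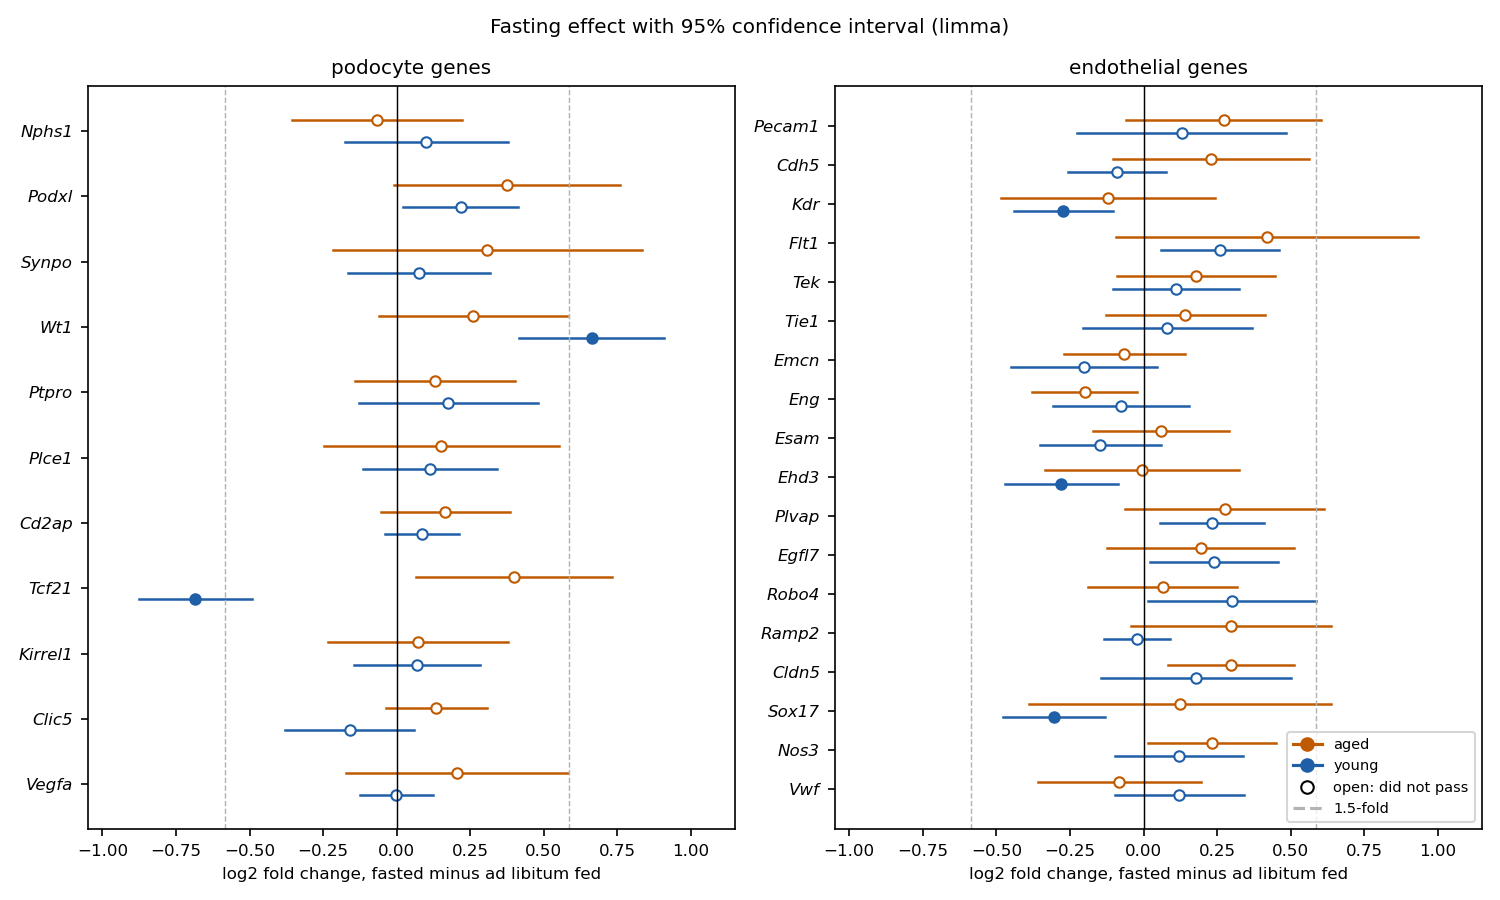
Log2 fold change of fasted over ad libitum fed mice (x axis) for the 11 podocyte genes (left) and the 18 endothelial genes (right), in aged mice (orange) and young mice (blue), with 95% confidence intervals from limma. Filled points passed the test and dashed lines mark a 1.5-fold change: the filled points are all young, with Wt1 at 0.66, Tcf21 at -0.69 and Kdr, Ehd3 and Sox17 between -0.27 and -0.30.

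Tcf21, a basic helix-loop-helix transcription factor of podocytes that is also known from stromal cells of the kidney, fell in fasted young kidneys. The 250 bases before its transcription start, shown because this gene had the largest change of the list in young kidneys, were taken from RefSeq (build GRCm38.p6) and are given 5' to 3' on the strand of the gene.
Tcf21, chr10:22820144-22820393, minus strand: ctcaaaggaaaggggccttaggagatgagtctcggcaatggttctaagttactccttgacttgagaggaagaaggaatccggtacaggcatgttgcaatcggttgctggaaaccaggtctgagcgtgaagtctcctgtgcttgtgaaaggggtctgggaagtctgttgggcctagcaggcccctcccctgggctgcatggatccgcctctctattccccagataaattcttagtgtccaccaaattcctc
Its log2 level was 8.04, 8.07, 8.27, 8.07 and 8.25 in the 5 young ad libitum fed mice and 7.61, 7.26, 7.58 and 7.37 in the 4 young fasted mice. Every fasted mouse lay below every ad libitum fed mouse. The means were 8.14 ± 0.11 (SD, n = 5) and 7.46 ± 0.17 (SD, n = 4), a log2 fold change of -0.69 (standard error, SE, 0.09, adjusted p = 0.000245 by limma) or 1.61-fold lower. In aged kidneys the level was 7.44, 7.14, 7.46, 6.81 and 6.86 with ad libitum feeding and 7.78, 7.59, 7.47, 7.13 and 7.72 after fasting. These groups overlapped, and 4 of 5 fasted mice lay above all ad libitum fed mice. The aged log2 fold change was 0.40 (SE 0.15) and did not pass (adjusted p = 0.167 by limma), and it was 0.32 (SE 0.15) without mouse 40. The aged effect exceeded the young effect by 1.08 (SE 0.19, 95% interval 0.68 to 1.48, adjusted p = 0.00486 by limma). This difference passed in each of the 7 other settings and with any single array left out, between 0.98 and 1.18.

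Wt1, the zinc finger factor needed to form podocytes and to keep them differentiated, rose in fasted young kidneys. The level was 3.92, 4.06, 4.32, 4.06 and 4.18 with ad libitum feeding and 5.00, 4.91, 4.72 and 4.46 after fasting, with no overlap between the groups. Wt1 had a log2 fold change of 0.66 (SE 0.11, adjusted p = 0.00167 by limma), or 1.58-fold higher. In aged kidneys the level was 3.08, 2.97, 3.36, 2.87 and 3.45 with ad libitum feeding and 3.02, 3.36, 3.30, 3.52 and 3.82 after fasting. These groups overlapped, and the log2 fold change of 0.26 (SE 0.15) did not pass. The difference between the ages, -0.40 (95% interval -0.82 to 0.01), did not pass either, so an unequal response of Wt1 in the 2 ages was not shown. Its single probe set is of a type that can bind related transcripts. The aged levels lie near 3.35, the level under which the dimmest 40% of probe sets fall, a single level for both ages. Wt1 was also dim in young ad libitum fed mice, whose mean of 4.11 lay under the median of all probe sets on every young array (4.15 to 4.21). The young fasted mean of 4.77 lay above these medians.

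The 2 transcription factors thus moved in opposite directions in the same 4 young fasted mice. No structural podocyte gene of the list passed with either of them at its brightest probe set. A dimmer probe set of Podxl did fall in young kidneys, and some podocyte genes outside the list passed there, both given below. Nephrin (Nphs1), the adhesion molecule that spans the slit diaphragm, had log2 fold changes of 0.10 (SE 0.13) in young and -0.07 (SE 0.13) in aged kidneys. Nphs1 was dim, with a young ad libitum fed mean of 4.02 under the median of all probe sets on every young array. Kirrel1, its binding partner, had 0.07 in both ages, and Cd2ap, the adaptor that links nephrin to actin, had 0.09 in young and 0.17 in aged kidneys. The 95% interval of Cd2ap in young kidneys, -0.04 to 0.21, was the narrowest among these 3 slit diaphragm genes.

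Podocalyxin (Podxl), the charged sialoprotein that keeps foot processes apart, had log2 fold changes of 0.22 (SE 0.09, adjusted p = 0.123 by limma) in young and 0.37 (SE 0.18, adjusted p = 0.282 by limma) in aged kidneys. Its aged ad libitum fed mice read 8.55, 8.61, 8.80, 7.74 and 8.85 and its aged fasted mice 8.74, 8.77, 8.80, 9.04 and 9.07. The lowest of these values came from mouse 40, and without it the aged log2 fold change was 0.18. A dimmer probe set of Podxl went the other way in young kidneys, with a log2 fold change of -0.48 (adjusted p = 0.0434 by limma), so the direction of Podxl depended on the probe set. Synaptopodin (Synpo), the actin-associated protein of foot processes, had 0.08 in young and 0.31 in aged kidneys, and the aged value was 0.07 without mouse 40. The receptor phosphatase Ptpro had 0.17 and 0.13, phospholipase C epsilon (Plce1) 0.11 and 0.15, and the chloride channel-like protein Clic5 -0.16 and 0.13 as log2 fold changes in young and aged kidneys, none of which passed.

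Vegfa, which podocytes and also tubule cells secrete, had one of the smallest standard errors of these genes in young kidneys. Its log2 level in young ad libitum fed mice was the same value, 9.53679, in 4 mice and 9.60 in mouse 348. In the fasted mice Vegfa was at 9.53, 9.46, 9.54 and 9.66, with mouse 343 again at 9.53679. The source of these identical values was not tested, and they limit what the small spread of Vegfa can show. Its log2 fold change was -0.00 with a 95% interval of -0.13 to 0.12. In aged kidneys it read 8.71, 8.69, 8.68, 7.68 and 8.68 with ad libitum feeding and 8.63, 8.60, 8.76, 8.65 and 8.83 after fasting. The aged log2 fold change was 0.20 with mouse 40 and 0.00 (SE 0.07) without it. A dimmer probe set of Vegfa had -0.04 in young and -0.06 in aged kidneys.

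**Figure D2:**
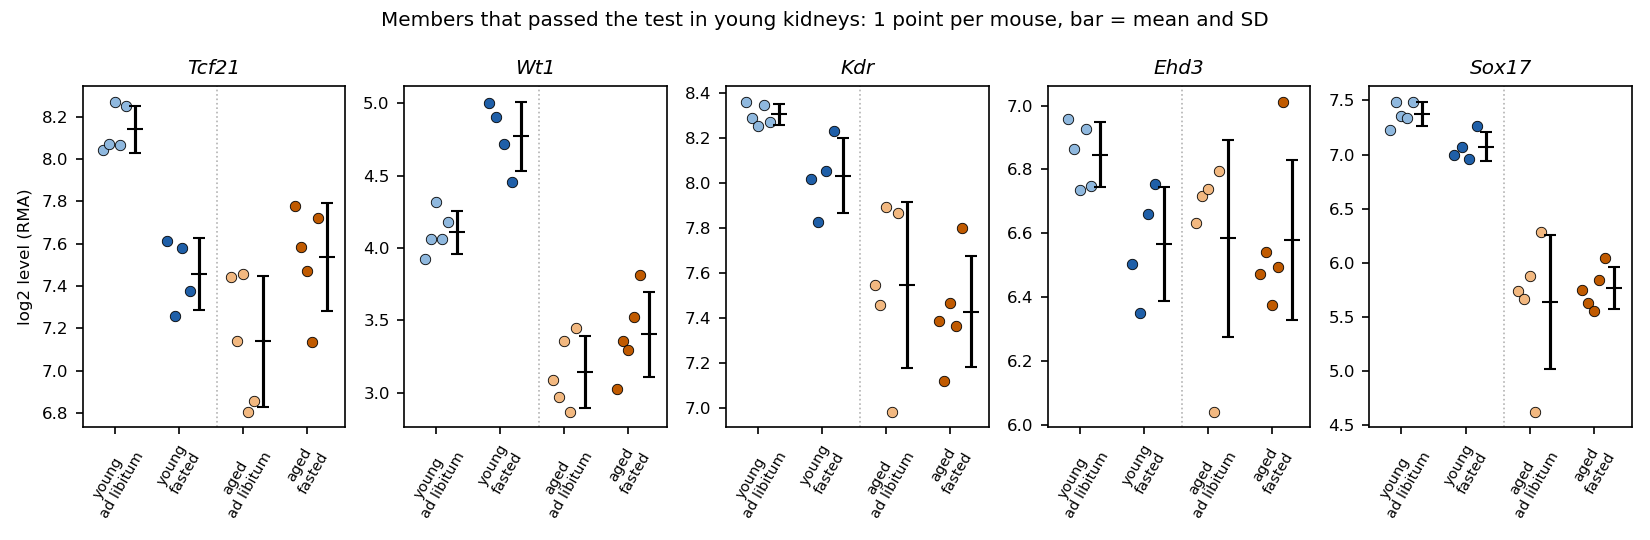
Log2 level (y axis, RMA values; each panel has its own scale) of the 5 genes that passed in young kidneys, in the 4 groups on the x axis. Each point is 1 mouse and the bar gives mean and SD; young and aged levels are not on a common scale. Young fasted and ad libitum fed mice do not overlap for Tcf21, Wt1 and Kdr, and the lowest aged ad libitum fed point of Kdr, Ehd3 and Sox17 is mouse 40.

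Among the endothelial genes, the VEGF receptors came first. Kdr (VEGF receptor 2), the receptor through which VEGF drives endothelial growth and permeability, fell in fasted young kidneys. Its log2 level was 8.36, 8.29, 8.26, 8.35 and 8.27 with ad libitum feeding and 8.02, 7.83, 8.05 and 8.23 after fasting. The groups did not overlap, with mouse 344 the closest of the fasted mice to the ad libitum fed range. Kdr had a log2 fold change of -0.27 (SE 0.08, adjusted p = 0.0272 by limma), or 1.21-fold lower. Kdr did not overlap between the young groups, as did Tcf21 and Wt1, which makes 3 of 29 genes where 21.3% of all genes had no overlap. In aged kidneys its levels were 7.54, 7.45, 7.89, 6.98 and 7.86 with ad libitum feeding and 7.39, 7.12, 7.47, 7.36 and 7.80 after fasting, a log2 fold change of -0.12 (SE 0.17) that was -0.26 (SE 0.13) without mouse 40. Neither aged value passed. No gene of the list was free of overlap in aged kidneys (0 of 29), against 10.2% of all genes.

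Flt1 (VEGF receptor 1), which binds VEGF tightly and also exists as a soluble decoy, did not pass, and its values lay on the other side of 0. In young kidneys it read 7.86, 7.93, 7.77, 7.94 and 7.75 with ad libitum feeding and 7.99, 7.91, 8.19 and 8.36 after fasting. The log2 fold change was 0.26 (SE 0.09, adjusted p = 0.0712 by limma), and it passed when mouse 340 was left out (0.33, adjusted p = 0.0333 by limma). The aged log2 fold change was 0.42 (SE 0.24), the largest of the 18 endothelial genes, and 0.24 without mouse 40. Its 2 dimmer probe sets had 0.05 and 0.08 in young kidneys. The angiopoietin receptor Tek and its relative Tie1 had log2 fold changes of 0.11 and 0.08 in young and 0.18 and 0.14 in aged kidneys, none of which passed.

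Ehd3, an endocytic ATPase enriched in glomerular endothelium, fell in young kidneys. Its log2 level was 6.96, 6.86, 6.74, 6.93 and 6.75 with ad libitum feeding and 6.50, 6.35, 6.66 and 6.75 after fasting. Fasted mouse 344 overlapped the ad libitum fed range and the other 3 lay below it. This gave a log2 fold change of -0.28 (SE 0.09, adjusted p = 0.0434 by limma), and its second probe set had -0.34 (adjusted p = 0.0866 by limma). The aged log2 fold change was -0.01 (SE 0.15). Sox17, a transcription factor of arterial endothelium, also fell, from 7.22, 7.48, 7.36, 7.34 and 7.49 to 6.9998, 7.07, 6.96 and 7.26 on the log2 scale. Here too mouse 344 alone reached the ad libitum fed range. The log2 fold change was -0.30 (SE 0.08, adjusted p = 0.0189 by limma) at a probe set that can bind related transcripts, and a second probe set had -0.24 (adjusted p = 0.0752 by limma). The aged log2 fold change of Sox17 was 0.12 (SE 0.24) with mouse 40 at 4.63 and the other 4 ad libitum fed mice at 5.66 to 6.29, and it was -0.13 without mouse 40.

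The 3 endothelial calls rested on few mice. With all 19 arrays in one fit, with the ordinary test, and without fasted mouse 339 or mouse 343, 0 endothelial genes passed in young kidneys. Without mouse 344 there were 4, with the junction protein Esam added at a log2 fold change of -0.25. Without ad libitum fed mouse 346 or mouse 349, 1 gene passed, Sox17. The calls of Tcf21 and Wt1 held in each of these settings.

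The promoter windows of both Kdr and Ehd3 were in the RefSeq table (build GRCm38.p6), and the 250 bases before each start are shown because both genes fell in young kidneys. Capitals mark a GC box, GGGCGG, on either strand.
Kdr, chr5:75978456-75978705, minus strand: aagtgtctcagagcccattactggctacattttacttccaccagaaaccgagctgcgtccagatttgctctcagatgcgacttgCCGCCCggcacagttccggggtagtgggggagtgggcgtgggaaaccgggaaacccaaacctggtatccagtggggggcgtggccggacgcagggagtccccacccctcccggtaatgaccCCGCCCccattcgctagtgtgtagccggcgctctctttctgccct
Ehd3, chr17:73804591-73804840, plus strand: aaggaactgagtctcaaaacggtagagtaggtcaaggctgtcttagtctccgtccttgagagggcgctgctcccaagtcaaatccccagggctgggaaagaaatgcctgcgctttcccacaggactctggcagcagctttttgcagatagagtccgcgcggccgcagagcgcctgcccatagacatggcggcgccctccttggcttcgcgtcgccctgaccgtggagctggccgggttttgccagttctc
Windows of 300 bases, from 250 before to 50 after the start, were given for 19 of the 30 genes (9 podocyte, Magi2 included, and 10 endothelial) and for 27025 genes in all, with 32851 windows. A gene was counted when any of its windows held the motif, so genes with several windows had more chances to match. GGGCGG was found on either strand in 5 of 9 podocyte and 5 of 10 endothelial genes, among them Kdr, Flt1 and Ehd3, and in 38.2% of all genes. The ETS motif CAGGAAGT was found in Ehd3 and Egfl7, 2 of 10 endothelial genes, and in 3.86% of all genes. CCGGAAGT and the FoxO motif GTAAACA were found in 0 of the 19 and in 4.31% and 4.05% of all genes. The hypoxia motif ACGTG was in Vegfa and Ehd3 and in 21.8% of all genes, and the glucocorticoid receptor motif TGTTCT was in 4 podocyte genes (Clic5, Nphs1, Plce1 and Ptpro), 2 endothelial genes (Egfl7 and Tek) and 21.3% of all genes. None of these motifs lies in the Tcf21 window. The matches of Ehd3 all lie after the start, outside the stretch shown. Vegfa had 2 windows, and before the start ACGTG was in that at chr17:46025114 and not in that at chr17:46032328. These matches describe letters and not binding.

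The remaining endothelial genes did not pass in either age. Claudin 5 (Cldn5), the tight junction protein of endothelium, had the smallest p of the aged comparison. Its level was 5.49, 5.26, 5.16, 4.92 and 5.18 in aged ad libitum fed and 5.45, 5.69, 5.46, 5.50 and 5.40 in aged fasted mice. Mouse 34 was the one ad libitum fed mouse inside the fasted range. The resulting log2 fold change was 0.30 (SE 0.10, adjusted p = 0.106 by limma), and Cldn5 passed when mouse 34 was left out (0.37, adjusted p = 0.0340 by limma). In young kidneys its log2 fold change was 0.18 (SE 0.15), with fasted mouse 339 at 6.34 above all the others.

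Endoglin (Eng), the coreceptor for BMP9 and TGF-beta on endothelium, had one of the few negative values in aged kidneys. The log2 fold change was -0.20 (SE 0.08, adjusted p = 0.205 by limma), from 7.41, 7.32, 7.54, 7.21 and 7.43 to 7.06, 7.07, 7.31, 7.16 and 7.32. In young kidneys it was -0.08 (SE 0.11). Endothelial nitric oxide synthase (Nos3) had 0.23 (SE 0.10, adjusted p = 0.231 by limma) in aged and 0.12 in young kidneys, both as log2 fold changes.

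The adhesion molecules Pecam1 and VE-cadherin (Cdh5) had log2 fold changes of 0.27 and 0.23 in aged and 0.13 and -0.09 in young kidneys. Plvap, which forms the diaphragms of fenestrae, had 0.28 in aged and 0.23 (SE 0.08, adjusted p = 0.0671 by limma) in young kidneys, and the young value passed in 3 settings, among them a fit without mouse 340 (0.29, adjusted p = 0.0330 by limma). The endothelial sialomucin Emcn had -0.07 in aged and -0.20 in young kidneys and Esam 0.06 and -0.15. The secreted Egfl7 had 0.19 and 0.24, the guidance receptor Robo4 0.07 and 0.30, and von Willebrand factor (Vwf) -0.08 and 0.12, the last at a probe set whose mean of 3.33 is under the dim level of 3.35. Ramp2, the partner of the adrenomedullin receptor, had 0.30 in aged and -0.02 in young kidneys at its brightest probe set. Its young levels there, 13.53 to 13.66, lay close to 13.73, the highest value on any array. Whether this limits the young value was not tested. The dimmest probe set of Ramp2 fell in young kidneys with a log2 fold change of -0.32 (adjusted p = 0.00256 by limma), and its remaining probe set had 0.05.

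As a group, the aged values leaned to the positive side without a single call. The median log2 fold change was 0.17 over the 11 podocyte genes, 10 of them positive, and 0.16 over the 18 endothelial genes, 13 of them positive, beside -0.01 over all genes, of which 48.3% were positive. Leaving out mouse 40 gave medians of 0.08 and 0.11, with 10 of 11 and 11 of 18 values positive. In young kidneys the medians were 0.09 and 0.10, with 8 of 11 and 10 of 18 positive values, beside -0.01 and 47.9% over all genes. Without fasted mouse 344 the young endothelial median was -0.03. The sign was the same in both ages for 7 of 11 podocyte and 13 of 18 endothelial genes and for 65.9% of all genes.

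The precision bounds what was missed. In aged kidneys the 95% interval of 21 of the 29 genes lay wholly within a 1.5-fold change in either direction, and that of 29 within a 2-fold change. In young kidneys 26 lay within 1.5-fold and 29 within 2-fold. Of all 17097 genes, 15120 in aged and 14525 in young kidneys lay within 1.5-fold. The median standard error in aged kidneys was 0.15 over the 29 genes and 0.09 over all genes, so the 29 were measured less precisely there. The genes differed more between mice of a group in aged kidneys. The median SD in the aged ad libitum fed group was 0.24 for podocyte and 0.25 for endothelial genes, 0.20 and 0.17 without mouse 40, and 0.14 over all genes, while in the young ad libitum fed group it was 0.17 and 0.11 beside 0.11 over all genes.

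**Figure D3:**
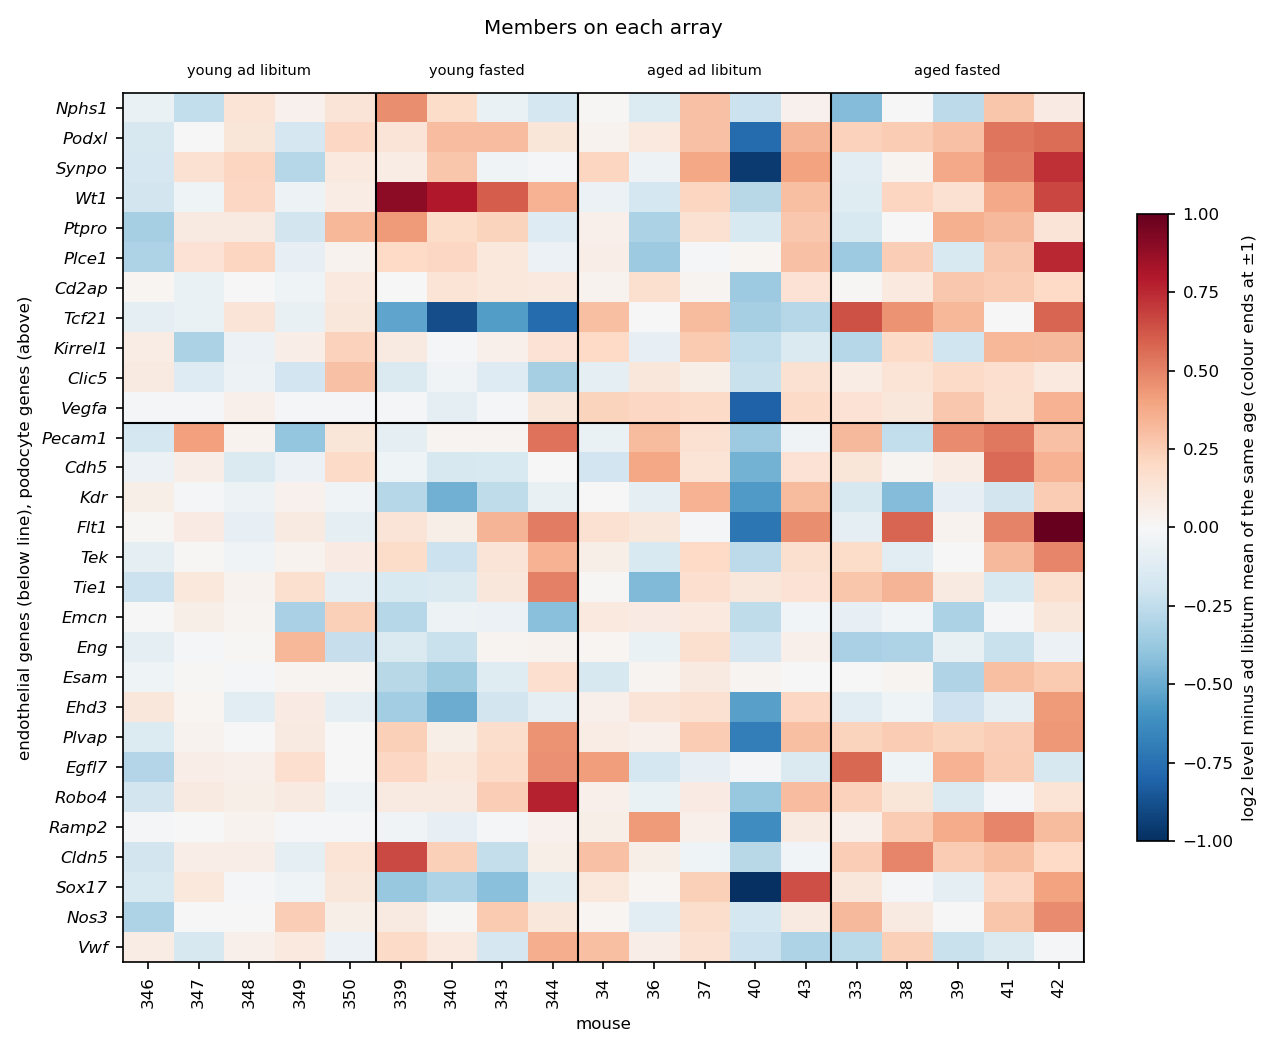
Log2 level of each of the 29 genes (rows, podocyte genes above the line) on each of the 19 arrays (columns, labelled by mouse) minus the mean of the ad libitum fed mice of the same age; the colour scale ends at 1 in either direction. The blue column is aged ad libitum fed mouse 40, lowest for 19 of 29 genes, and the rows of Wt1 and Tcf21 have opposite colours in the 4 young fasted mice.

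Single mice also stood out in the fasted groups. Aged fasted mouse 42 was the highest of 10 arrays for 5 podocyte and 6 endothelial genes, 37.9% of the 29, and for 9.93% of all genes. Young fasted mouse 344 was the highest of 9 arrays for 10 of 18 endothelial genes but for 1 of 11 podocyte genes, and for 13.1% of all genes. Its endothelial genes had a median 0.14 above the ad libitum mean, against -0.04, -0.07 and 0.01 in the other 3 fasted mice, while its podocyte genes had -0.01 against 0.09, 0.18 and 0.05. In the aged fasted mice 33, 38, 39, 41 and 42, the podocyte medians were -0.11, 0.14, 0.27, 0.27 and 0.34 and the endothelial medians 0.11, 0.03, -0.00, 0.25 and 0.28. The 2 cell types thus lay apart by over 0.2 in mice 33 and 39.

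Markers of other cells were read in the same way, where 10.7% of all genes rose and 12.5% fell in young and 4.32% rose and 4.84% fell in aged kidneys. Of 10 macrophage markers, 5 fell and 1 rose in young kidneys, with C1qc at a log2 fold change of -0.68, C1qb at -0.92, Adgre1 at -0.77 and C1qa at -0.67. In aged kidneys Cd14 rose by 0.79 while Csf1r fell (-0.51), as they also did in young kidneys (0.35 and -0.54). Relative to the ad libitum mean, the median of the macrophage markers was between -0.60 and -0.34 on the 4 young fasted arrays. Of 10 mesangial, pericyte and smooth muscle markers, 3 fell and 1 rose in young kidneys: Myl9 at -1.26, Itga8 at -0.54, Acta2 at -0.60 and the stromal receptor Pdgfra at 0.75. In aged kidneys 2 of them fell, Myl9 (-0.59) and Itga8 (-0.58). The part of these stromal markers in the fall of Tcf21 was not tested. On the array of mouse 40 the macrophage markers had a median 0.49 above and the mesangial markers 0.26 below the ad libitum mean. The median of 7 liver markers was 2.98 above it in aged fasted mouse 33 and 1.33 above it in young fasted mouse 339. In young kidneys Apoc3 (1.36) and Serpina1a (1.39) of these rose and Ttr (-1.04) fell, and 0 passed in aged kidneys by limma. Among 6 markers of brown fat, Cidea (2.84) and Cox8b (1.77) rose and Cox7a1 (-0.77) fell in young kidneys, and Cox7a1 (-0.85) fell in aged kidneys. Of 6 markers of white fat, Lipe (0.86) rose in young kidneys. The median of the brown fat markers was 0.99 above the ad libitum mean in young fasted mouse 343, 0.75 in mouse 339 and 0.96 in aged ad libitum fed mouse 40. Of 4 red cell markers, Alas2 (-1.01) and Hba-a1 (-0.75) fell in young kidneys, and 1 of 8 lymphocyte markers fell there, Cd3g (-0.28). Among 10 markers of tubule segments other than the proximal, 4 fell in young kidneys, Calb1 (-0.94), Pvalb (-1.01), Slc26a4 (-0.40) and Aqp2 (-0.53), and in aged kidneys Pvalb (-1.13) and Calb1 (-0.99) fell. Of 8 proximal tubule markers, Slc5a2, Slc22a6 and Amn fell in young kidneys, and Slc5a2 (-1.09) and Slc22a6 (-0.37) fell while Aqp1 (0.27) rose in aged kidneys. The part of these other cells in the values of the podocyte and endothelial genes was not tested.

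**Figure D4:**
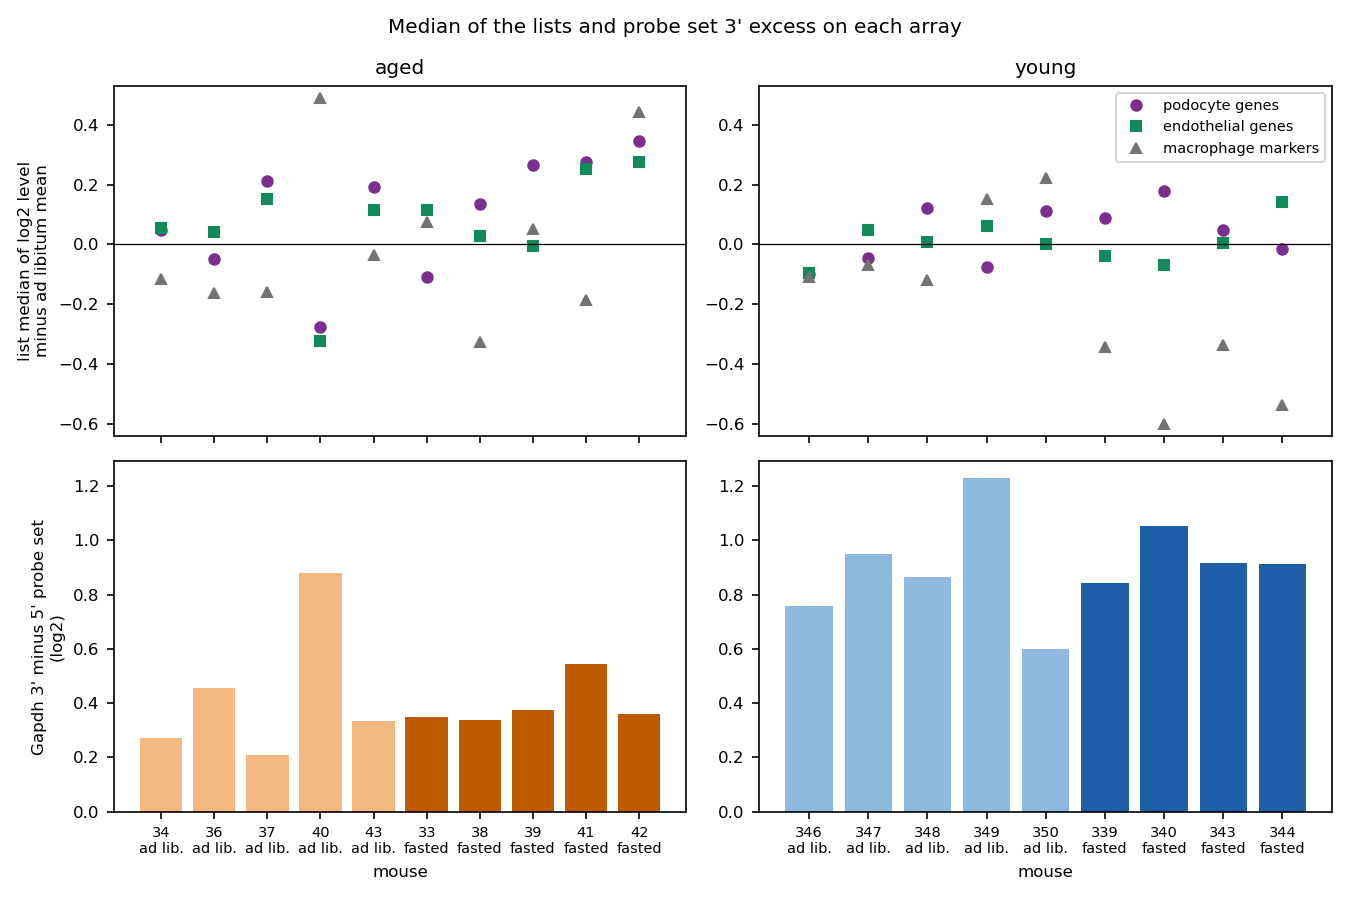
Top: median of the log2 level minus the ad libitum mean of the same age (y axis) over the 11 podocyte genes, the 18 endothelial genes and 10 macrophage markers, for each mouse (x axis). Bottom: log2 excess of the 3' over the 5' Gapdh probe set on the same arrays (light bars ad libitum fed, dark bars fasted); aged mouse 40, at 0.88, has the highest excess of the aged arrays and the lowest medians of both cell types.

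Genes of the same pathways are given beside the share of all genes that passed, 10.7% that rose and 12.5% that fell in young and 4.32% and 4.84% in aged kidneys. Several of these lists lay near those shares. Among 16 other genes of the slit diaphragm and podocyte cytoskeleton, 0 passed in aged kidneys, while in young kidneys 3 fell, the actin regulators Arhgap24 (-0.58) and Rhpn1 (-0.41) and the nephrin adaptor Nck1 (-0.42), and 1 rose, the formin Inf2 (0.32). For 1 of the 16, Nck1, the fasting effect differed by age (aged minus young 0.62, adjusted p = 0.0257 by limma), where 2.44% of all genes differed. Among 17 other podocyte transcription factors and markers, 0 passed in aged kidneys, and in young kidneys nephronectin (Npnt) fell by 1.00 on the log2 scale while Sema3g (0.60) and Nupr1 (0.74) rose. Of 10 glomerular basement membrane genes 3 fell in young kidneys, Nid1 (-0.49), Col4a2 (-0.30) and Col4a3 (-0.26), and 0 passed in aged kidneys.

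Of 15 other genes of VEGF signalling, 1 rose and 4 fell in young (all genes 10.7% and 12.5%) and 1 rose and 2 fell in aged kidneys (4.32% and 4.84%). The apelin receptor Aplnr had log2 fold changes of -1.22 in young and -0.63 in aged kidneys and the lymphatic ligand Vegfd of -0.38 and -0.37. Rcan1, a calcineurin inhibitor that VEGF induces, rose by 1.10 in young kidneys, where Plcg2 (-0.58) and Vegfc (-0.33, named after its value was seen) fell, and the coreceptor Nrp1 rose by 0.41 in aged kidneys. For 1 of the 15, Rcan1, the fasting effect differed by age (aged minus young -1.045, adjusted p = 0.0482 by limma), where 2.44% of all genes differed. In the angiopoietin list of 8, Tnip2 (0.57) rose and Angpt1 (-0.27), the ligand of Tek, fell in young kidneys, and 0 passed in aged kidneys.

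The pathway of BMP9 and endoglin held 12 measured genes beside Eng, 5 of which rose and 0 fell in aged kidneys, where 4.32% of all genes rose and 4.84% fell. In young kidneys 4 rose and 1 fell, where 10.7% of all genes rose and 12.5% fell. The signal transducer Smad1 rose by 0.42 in aged and 0.49 in young kidneys and the ligand Bmp4 by 0.62 and 0.61, all as log2 fold changes. Smad7 (0.74) and the receptor Tgfbr1 (0.34) rose in aged kidneys, and Smad6, an inhibitor of the pathway, by 0.49 in aged (named after its value was seen) and 0.54 in young kidneys. Bmpr2 (0.22) rose and Acvrl1 (-0.22, named after its value was seen), the endothelial receptor for BMP9, fell in young kidneys.

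Other endothelial markers went both ways in young kidneys, where 6 of 20 rose and 4 fell beside 10.7% and 12.5% of all genes. Icam2 (-0.62), Myct1 (-0.65), Slco2a1 (0.50) and Clec14a (0.42) had the smallest adjusted p. In aged kidneys 1 rose, Ly6c1 (0.47), which also rose in young kidneys (0.35). For 3 of the 20 the effect of fasting differed by age, where 2.44% of all genes differed: Myct1 (1.04), Icam2 (0.62) and Calcrl (0.45), all higher in aged kidneys. Of 18 endothelial transcription factors, Klf4 rose in both ages (0.81 aged, 0.57 young), Klf2 (0.76) and Ets2 (0.27) rose in aged kidneys and Ets1 fell in young kidneys (-0.29). Among 21 genes of nitric oxide, endothelin and haemostasis 4 rose in aged kidneys (4.32% of all genes), and 6 rose and 3 fell in young kidneys (10.7% and 12.5%). The endothelin receptor Ednrb rose by 0.81 and 1.04 and the vasodilator peptide Adm by 0.57 and 1.05 in aged and young kidneys, and thrombomodulin (Thbd) fell in young kidneys (-0.86). The adhesion molecule Icam1 rose by 0.56 in aged and 0.68 in young kidneys, the endothelin-converting enzyme Ece1 (0.29) rose in aged and the cGMP-dependent kinase Prkg1 (0.36) in young kidneys.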

How the data were processed

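RNA from frozen kidney of 19 mice was profiled with the Affymetrix HT MG-430 PM design. The values deposited by the authors are log2 signals of 45141 probe sets after background correction and normalization by RMA, whose version is not given in the sources used here. The offset in median level between young and aged arrays means that levels were compared only within an age.

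From these values linear models were fitted in R 4.3.3 with limma 3.58.1 (lmFit and eBayes), once for the 10 aged and once for the 9 young arrays. To compare the fasting effect between ages, all 19 arrays entered one model with a mean per group. Benjamini-Hochberg adjustment covered every probe set of the table. The script was tested on simulated data.

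The annotation provided gave 1 gene for 28898 probe sets, several for 551 and listed none for 15692. Symbols were updated through gene identifiers (GRCm38.p6). Of the 29 genes measured, 14 had several probe sets and 15 had 1. Kirrel1 is listed there as Kirrel. Magi2 was not analysed here.

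The members and all gene lists were chosen with earlier results of these data known. Beyond the members, up to 4 genes per list and age were named, those with the smallest adjusted p among genes that rose or fell. Genes named outside this rule are marked as such, complete a count of 5 or fewer, or were named for the other age. Alternatives were all arrays in one fit, no moderation, an intensity trend with robust fitting, array weights, quantile normalization, median centring, removal of the dimmest 40% of probe sets, the mean of a gene's probe sets, a 1.5-fold minimum and leaving out each array. Each sample is 1 mouse, and the number of arrays limits the precision. Python 3.11.15 and matplotlib 3.10.9 drew the figures.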

Additional observations from a re-analysis of the deposited data

Results flagged for a closer look

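In groups of 4 or 5 mice, the highest or lowest mouse was tested for standing apart from the rest of its group (Dixon's test at 95%). Over the 29 genes and 4 groups, 10 of 116 combinations were marked, where chance marks about 1 in 20, and 5 of the 10 were aged ad libitum fed mouse 40. Mouse 40 was lowest for Podxl at a log2 level of 7.744 (nearest mouse 8.549), Cd2ap at 8.494 (8.889), Vegfa at 7.677 (8.682), Ehd3 at 6.040 (6.631) and Plvap at 7.809 (8.556). Its 3' excess of Gapdh and the aged fold changes without it stand in the report, and the part of RNA quality in its low values was not tested.

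Aged fasted mouse 42 was highest for Ehd3 at 7.013 (nearest mouse 6.540) and Plvap at 8.935 (8.752). Aged ad libitum fed mouse 36 was lowest for Tie1 at 3.197 (3.643) and mouse 34 highest for Egfl7 at 7.137 (6.692). Young ad libitum fed mouse 348 was highest for Vegfa at 9.597 (9.537), a gap of under 0.1 in a group whose other 4 mice had the same value.

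The fasting effect on Tcf21 differed between aged and young mice by 1.084 on the log2 scale (adjusted p = 0.00486 by limma). Age, strain and weight differ together between these mice and cannot be told apart. The 3' excess of Gapdh also differed, at 0.60 to 1.23 on young arrays and 0.21 to 0.54 on aged arrays other than mouse 40. Its part in this difference was not tested.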

How the results depend on the processing

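The counts of podocyte genes (0 in aged kidneys, 2 in young kidneys, 1 for the difference between ages) and the 0 endothelial genes for the difference kept their values under every alternative run. The 0 endothelial genes in aged kidneys became 1 without ad libitum fed mouse 34 and stayed 0 in the other settings (range 0 to 1 when single arrays were left out). The 3 endothelial genes in young kidneys became 0 with all 19 arrays in one fit, 0 with the ordinary test and 0 with a fold change of at least 1.5 as well, and ranged from 0 to 4 when single arrays were left out. Over all alternatives Kdr did not pass in 7, Ehd3 in 11 and Sox17 in 4 of 17, with adjusted p up to 0.253, 0.201 and 0.390, and the cause was not tested. No value of a gene that passed anywhere changed sign. The median log2 fold change of all genes in young kidneys was -0.0073, and it was -0.034 with median centring and -0.010 with quantile normalization. No paired analysis was possible because the sample labels give no pairs. The paper describes matching of mice in pairs by body weight and sex before a diet was assigned. In aged kidneys the standard errors of the 29 genes ranged from 0.079 to 0.24 with a median of 0.15.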

Other observations

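Hypoxia-induced genes, to which Vegfa is often counted, changed in both directions. Of 14 measured genes, Vegfa included, 3 rose and 2 fell in aged kidneys, where 4.32% of all genes rose and 4.84% fell, and 5 rose and 2 fell in young kidneys, where 10.7% rose and 12.5% fell. The pyruvate dehydrogenase kinase Pdk1 rose by 1.01 and 0.80 (log2, aged and young kidneys), the mitophagy protein Bnip3 rose by 0.52 and 0.81, and the oxygen sensor Egln1 fell by 0.41 and 0.33. Lactate dehydrogenase A (Ldha) fell by 0.29 and 0.22 and Adm rose by 0.57 and 1.05 in aged and young kidneys, and Egln3 (1.12) rose in young kidneys.

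Among the notch genes of vessels, 0 of 13 passed in aged kidneys and 1 rose in young kidneys, the venous receptor Ephb4 (0.34). Of all genes, 4.32% rose and 4.84% fell in aged and 10.7% rose and 12.5% fell in young kidneys. The fasting effect on the ligand Jag1 was 0.78 higher in aged than in young kidneys (adjusted p = 0.0405 by limma), where 2.44% of all genes differed.

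Of 10 tight and adherens junction genes, F11r (0.49) rose in aged kidneys, and in young kidneys Ocln (0.69) rose while Jam3 (-0.48) and Ctnnb1 (-0.20) fell. Of 9 proliferation markers, Cdk1 (0.48) and Ccnb2 (0.65) rose in aged kidneys, and 0 passed in young kidneys by limma. Beside both lists, 4.32% of all genes rose and 4.84% fell in aged and 10.7% rose and 12.5% fell in young kidneys.

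Of 5 lymphatic endothelial markers and 7 adrenal cortex markers, 0 passed in either age by limma. The shares of all genes were 4.32% that rose and 4.84% that fell in aged and 10.7% and 12.5% in young kidneys.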
